A study of Mus musculus with 9 samples.

Results

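Integrins and laminins were described as 36 rows of the deposited count table, among 55228, whose gene symbol names an integrin alpha subunit (18 genes), an integrin beta subunit (8) or a laminin chain (10). The rule used gene symbols alone, and the choice of these genes was made with earlier results of these data known. Of these 36 genes, 28 had enough counts for the test and 8 did not. Laminins are the cross-shaped proteins of the basement membrane, each built from an alpha, a beta and a gamma chain. Integrins are the cell-surface receptors, each a pair of an alpha and a beta subunit, through which cells hold on to laminin, collagen, fibronectin and other ligands. In the mammary gland, basal and luminal epithelial cells rest on a basement membrane, and contact with laminin through beta1 integrin is required for the prolactin-driven milk protein program.

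The cells were HC11, an epithelial line from the mammary gland of a BALB/c mouse, grown undifferentiated in medium with serum, insulin and epidermal growth factor and with no further treatment. There were 9 cultures, 3 each of the parental line (*WT*, genotype WT) and of the lines *KD1* and *KD2*, whose labels name them Vangl2 knockouts. Both *KD* lines had received CRISPR/Cas9 with a single guide against *Vangl2*, a different guide in each, and a repair template with stop codons. Each *KD* line was grown from a selected colony, so that a line is 1 clone, and the parental line was neither edited nor cloned. Effects of the edit, of clonal origin and of the guide cannot be told apart within a line. The study calls its replicates biological in the legend that covers its RNA-seq plots, without saying how the cultures of a line were kept apart, so p-values measure the spread between these cultures, which may be technical.

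Poly-A RNA was sequenced to between 19231428 and 28360592 counts per culture, at which 3 counts, taken as the floor of detection, are 0.0999 to 0.154 CPM, the counts after scaling for depth. The targeted gene *Vangl2*, a core planar cell polarity gene, had 66, 99 and 86 counts in *WT*, 75, 48 and 69 in *KD1* and 90, 118 and 90 in *KD2*. Its level was lower in *KD1* (log2 fold change -0.63, SE 0.171, adjusted p 0.0058) and did not pass the test in *KD2* (0.05, SE 0.162, adjusted p 0.81). The RNA level therefore does not check the *KD2* label, and *KD2* stands for the cultures labelled so. At the protein level, the study reported by immunoblot almost no VANGL2 in *KD1* and a strong reduction in *KD2*. The third *KD2* culture differed from the other *KD2* cultures by a chi-square of 18.6 and 24.1 per degree of freedom, against 1.82 between those 2, and the first *WT* culture from the other *WT* cultures by 13.2 and 10.6, against 3.40 between those 2. Results that turn on either culture are given with and without it. Of the 8 epithelial markers examined, *Krt19* was at 0 counts in all cultures, and the summed level of the 8 ran from 1542 to 1686 CPM in *WT*, 2694 to 2775 in *KD1* and 1246 to 1455 in *KD2*. Of the 7 of them tested, 1 was called higher in *KD1* (9.34% of all genes) and 1 lower in *KD2* (6.71%). The 9 luminal mammary markers summed to 298 to 367 CPM in *WT*, 526 to 537 in *KD1* and 442 to 516 in *KD2*, with *Pgr* at 0 in all cultures. Of the 7 luminal markers tested, *Foxa1*, *Prlr* and *Gata3* were called higher in *KD1* (9.34% of all genes). The median of the 7 there was 1.14, against -0.03 over all genes. In *KD2*, *Elf5* alone was called higher (14.5% of all genes), with a median of 0.13 against 0.01. At the adjusted p alone, 3 of the 7 rose in *KD2* (34.0% of all genes) and 1 fell (33.3%). The 6 endothelial markers summed to at most 5.58 CPM in any culture. The summed level of 10 fibroblast and mesenchymal markers was 131 to 185 CPM in *WT*, 25.8 to 29.0 in *KD1* and 1110 to 1305 in *KD2*, most of it *Vim*. Of these 10 markers, 3 were at 0 in every *WT* culture, among them *Dcn* and *Lum*, and 2 were at or under the floor in *KD2*. The part of these marker differences in the results below was not tested. In bulk RNA, fewer cells of a type and less RNA per cell cannot be told apart.

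Promoter sequences are shown for 4 of the genes that were higher in *KD1* by a called amount and have an entry in RefSeq. These are *Itga2*, the collagen receptor subunit with the largest rise, *Itgb6*, *Lamb3* and *Itga3*. *Itga11*, also called higher in *KD1*, has an entry that is not shown. Capitals mark matches to the searched motifs. The printed sequences are bases upstream of a RefSeq transcription start on GRCm38.p6, written 5′ to 3′ on the strand of the gene. For *Itga2*, *Itgb6* and *Itga3* they end before the first annotated exon base. The *Lamb3* stretch lies inside the gene as annotated in GENCODE vM21, which spans chr1:193207699-193343878. The stretches are chr13:114932101-114932350 on the minus strand for *Itga2*, chr2:60722644-60722853 on the minus strand for *Itgb6*, chr1:193301744-193301992 on the plus strand for *Lamb3* and chr11:95076802-95076964 on the minus strand for *Itga3*. The reference is of the strain C57BL/6J, and HC11 is of BALB/c origin.
Itga2: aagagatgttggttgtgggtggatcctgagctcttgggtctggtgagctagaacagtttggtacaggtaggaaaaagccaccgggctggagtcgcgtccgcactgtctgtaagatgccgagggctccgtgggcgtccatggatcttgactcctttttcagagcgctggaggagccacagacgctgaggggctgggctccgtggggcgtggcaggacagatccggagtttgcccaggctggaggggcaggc
Itgb6: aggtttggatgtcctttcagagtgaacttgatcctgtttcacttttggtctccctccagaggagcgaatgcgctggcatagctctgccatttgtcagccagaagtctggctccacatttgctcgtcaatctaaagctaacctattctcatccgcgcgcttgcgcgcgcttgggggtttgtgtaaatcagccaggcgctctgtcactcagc
Lamb3: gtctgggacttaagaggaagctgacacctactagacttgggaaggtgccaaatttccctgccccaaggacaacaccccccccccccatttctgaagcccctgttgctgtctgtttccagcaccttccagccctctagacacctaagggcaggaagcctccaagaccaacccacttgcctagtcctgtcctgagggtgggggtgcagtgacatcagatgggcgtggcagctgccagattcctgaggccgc
Itga3: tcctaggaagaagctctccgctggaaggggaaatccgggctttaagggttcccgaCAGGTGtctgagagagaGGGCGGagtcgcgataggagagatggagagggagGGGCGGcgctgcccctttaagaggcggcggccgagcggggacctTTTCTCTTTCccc

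The motifs searched, on both strands of the 250 bases upstream of each start, were TGANTCA (AP-1), TTCNNNGAA (STAT), the interferon-stimulated response element (the word GAAA repeated after 2 bases), CAGGTG (an E-box) and GGGCGG (a GC box). The capitals in the *Itga3* sequence are, from its left end, the E-box, the GC box at 2 of its 3 places in the 250 bases searched and the reverse of the interferon-stimulated response element. The other GC box lies in the 87 bases that are not printed. The printed stretches of *Itga2*, *Itgb6* and *Lamb3* hold no match. Of the 36 genes, 23 had a promoter entry. The E-box letters were upstream of 8 of the 23 and occurred in 17.2% of all 32851 windows. The 8 include *Itga11*, *Itgb8* and *Lama5* and, before other starts than those shown, *Itgb6* and *Lamb3*. The GC box was upstream of 8 genes (32.7% of all windows). STAT letters were upstream of *Itga10* and *Lamb2* (7.02% of all windows), those of the response element upstream of *Itga2b* and *Itga3* (2.98%), and AP-1 letters upstream of *Itgax* alone (6.75%). A match is a description of letters and no evidence of binding.

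Each *KD* line was compared with *WT* to ask which genes differ after targeting of *Vangl2*. A gene was said to have changed at an adjusted p under 0.05 (quasi-likelihood test of edgeR, Benjamini-Hochberg over all 15253 genes tested), and was called when it also differed by more than 2-fold. Levels are given in CPM scaled by TMM, as mean ± SD over 3 cultures, or for each culture in turn. In *KD1*, 7 of the 28 genes tested were called higher, where the share of all genes called higher was 9.34%, and 3 were called lower, against 7.49% of all genes. At the adjusted p alone, 14 rose (26.9% of all genes), 5 fell (30.0%) and 9 did not pass. The median log2 fold change of the 28 was 0.28, against -0.03 over all genes tested. In *KD2*, 9 were called higher (14.5% of all genes) and 3 lower (6.71%), while 17 rose (34.0%), 8 fell (33.3%) and 3 did not pass. The median was 0.49, against 0.01 over all genes. *KD1* and *KD2* were compared with the same *WT* cultures.

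The counts by family are given with the share of all genes in brackets. Families are small, and no count is read as a result about a family. Of the 7 laminin chains tested, 3 were called higher (9.34%) and none lower (7.49%) in *KD1*. There 6 rose (26.9%) and 1 fell (30.0%), with a median log2 fold change of 0.50. In *KD2*, 1 was called higher (14.5%) and 1 lower (6.71%), while 5 rose (34.0%) and 2 fell (33.3%), with a median of 0.49. Of the 13 alpha subunits tested, *KD1* had 3 called higher (9.34%) and 1 lower (7.49%), with a median of 0.45. In *KD2*, 7 were called higher (14.5%) and 1 lower (6.71%), with a median of 1.04. The 8 beta subunits had 1 called higher (9.34%) and 2 lower (7.49%) in *KD1*, with a median of -0.04. In *KD2* they had 1 called higher (14.5%) and 1 lower (6.71%), with a median of -0.28. The plot of levels by culture shows how far apart the lines were for each gene.

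**Figure D1:**
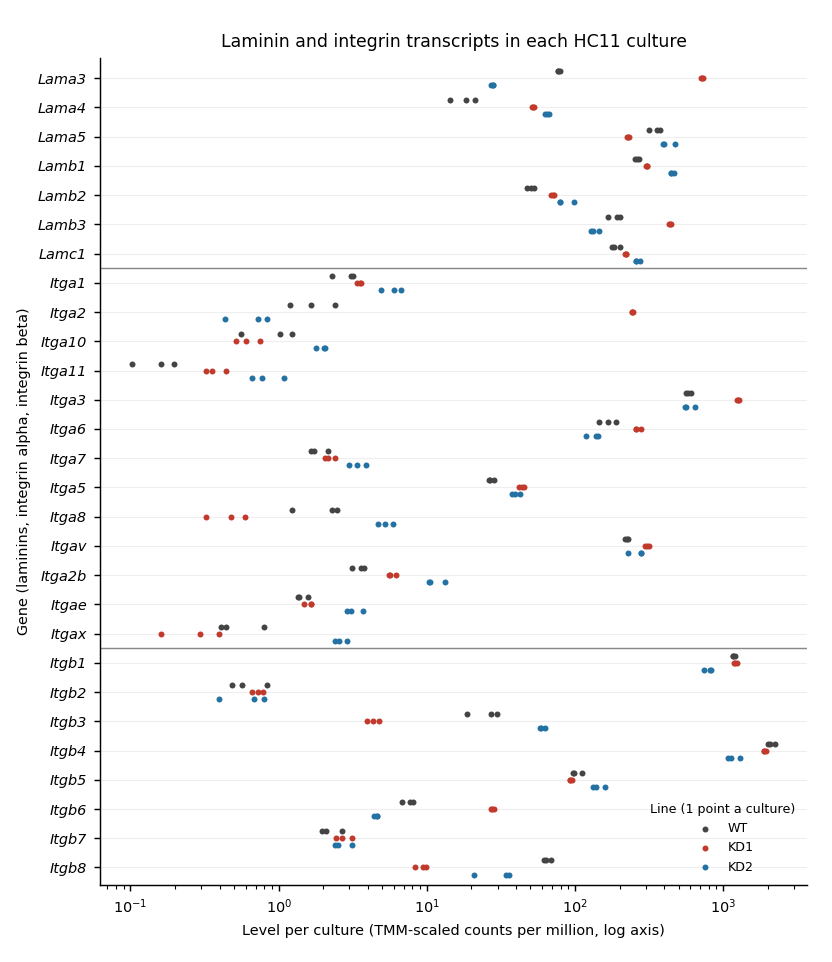
Level of each of the 28 tested genes in each of the 9 cultures, in TMM-scaled CPM on a log axis, with 1 point per culture coloured by line (*WT* grey, *KD1* red, *KD2* blue) and lines between laminins, integrin alpha and integrin beta subunits. *Itga2* spans from 0.433 to 247 CPM, and *Itgb4* and *Itgb1* were the most abundant genes in *WT*.

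*Lama3* and *Lamb3* encode chains of the hemidesmosome laminin, which anchors epithelia to their basement membrane, and were called higher in *KD1*, as was *Lama4*. *Lama3*, the alpha chain, stood at 77.3, 79.4 and 76.3 CPM in *WT*, 708, 729 and 717 in *KD1* and 28.1, 28.2 and 26.9 in *KD2*. The 3 lines did not overlap, with *KD1* highest and *KD2* lowest. It rose 9.24-fold in *KD1* (log2 3.21, SE 0.0550, adjusted p 2.9e-14) and fell 2.80-fold in *KD2* (log2 -1.48, SE 0.0551, adjusted p 6.4e-11). The 22 other genes tested within 2 Mb of *Lama3* had a median log2 fold change of 0.57 in *KD2*, in the other direction.

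*Lamb3*, the beta chain of the same laminin, had 167, 203 and 191 CPM in *WT*, with 439, 445 and 431 in *KD1* against 133, 129 and 145 in *KD2*. *KD1* lay above and *KD2* below every *WT* culture. The rise in *KD1* was called (log2 1.23, SE 0.0725, adjusted p 4.2e-09), and the fall in *KD2* was smaller than 2-fold (-0.46, SE 0.0724, adjusted p 6.6e-05).

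*Lama5*, *Lamb1* and *Lamc1*, whose products form a widespread epithelial laminin, differed from *WT* by less than 2-fold in each line. *Lama5* was at 355, 375 and 315 CPM in *WT*, 230.3, 226 and 228 in *KD1* and 400.0, 392 and 469.6 in *KD2*. *Lama5* fell in *KD1* (log2 -0.61, SE 0.0775, adjusted p 1.2e-05), and it rose slightly in *KD2* (0.27, SE 0.0770, adjusted p 0.0066). *Lamb1* went from 262 ± 6.78 CPM in *WT* to 303 ± 2.95 in *KD1* and 453 ± 14.2 in *KD2* (log2 0.21 and 0.79, adjusted p 0.0029 and 1.3e-08). *Lamc1* went from 188 ± 12.6 to 219.6 ± 0.888 and 263 ± 8.11 CPM (log2 0.22 and 0.49, adjusted p 0.0047 and 5.7e-06). Both rose in each line.

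*Lama4*, an alpha chain best known from vessels and mesenchyme, had 14.4, 21.2 and 18.3 CPM in *WT*, 51.9, 51.0 and 52.6 in *KD1* and 66.7, 63.1 and 64.9 in *KD2*. All *KD* cultures lay above all *WT* cultures. It was called higher in both lines, 2.87-fold in *KD1* (log2 1.52, SE 0.10, adjusted p 1.4e-08) and 3.60-fold in *KD2* (log2 1.85, SE 0.0999, adjusted p 2.1e-09). The markers of vessels were low: 6 endothelial markers summed to 2.05 to 2.49 CPM in *WT*, 4.95 to 5.58 in *KD1* and 1.43 to 2.10 in *KD2*, with *Emcn* at 0 in all cultures. *Lamb2*, a beta chain of synaptic and vascular basement membranes, rose from 50.1 ± 2.93 CPM to 70.9 ± 1.69 in *KD1* and 85.7 ± 11.3 in *KD2* (log2 0.50 and 0.77, adjusted p 1.7e-04 and 2.2e-06).

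Other laminins were too low to test. *Lama1*, the alpha chain of the embryonic basement membrane, had 1 count over all 9 cultures. *Lama2*, the alpha chain of muscle and nerve, had 0, 1 and 1 counts in *WT*, 3, 1 and 3 in *KD1* and 2, 6 and 5 in *KD2*. *Lamc3* had 0, 0 and 1 counts in *WT*, 8, 2 and 7 in *KD1* and 13, 8 and 5 in *KD2*.

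Exon length here counts all annotated exon bases of a gene, so shares and ratios between genes also depend on the isoforms annotated. Levels of different chains were compared after division by this length, in CPM per kb. On that scale the alpha chains summed to 39.3 ± 2.87 in *WT*, 91.2 ± 0.768 in *KD1* and 44.9 ± 3.70 in *KD2* (mean ± SD, n = 3 cultures). *Lama5* made up 77.8 ± 1.34% of the alpha chain level in *WT*, 22.0 ± 0.395% in *KD1* and 82.2 ± 1.53% in *KD2*, and *Lama3* made up 18.4 ± 1.01%, 73.3 ± 0.478% and 5.78 ± 0.598%. *Lama3* was thus the main alpha chain transcript in *KD1* and *Lama5* in the other lines. Per length, *Lama3* stood at 0.237 ± 0.0169 times the level of *Lama5* in *WT*, 3.34 ± 0.0815 times in *KD1* and 0.0705 ± 0.00847 times in *KD2*. The lines did not overlap in any of these shares, and the exact permutation test gave p = 0.1 for each pair of lines, the smallest that 3 against 3 cultures allow (two-sided).

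The beta chains shifted in the same order. The beta chain total was 62.9 ± 3.31 CPM per kb in *WT*, 109 ± 0.702 in *KD1* and 80.2 ± 4.53 in *KD2*. *Lamb3* took 44.8 ± 2.33% of it in *WT*, 61.0 ± 0.544% in *KD1* and 25.6 ± 0.398% in *KD2*, and *Lamb1* took 42.1 ± 1.74%, 28.2 ± 0.378% and 56.9 ± 1.49%. In *KD1* the per-length level of *Lama3* was 1.01 ± 0.0153 times that of its partner *Lamb3*, against 0.257 ± 0.0238 times in *WT* and 0.126 ± 0.0109 times in *KD2*. In both the alpha and the beta set, *Lama3* and *Lamb3* took their largest share in the *KD1* cultures and their smallest in the *KD2* cultures.

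**Figure D2:**
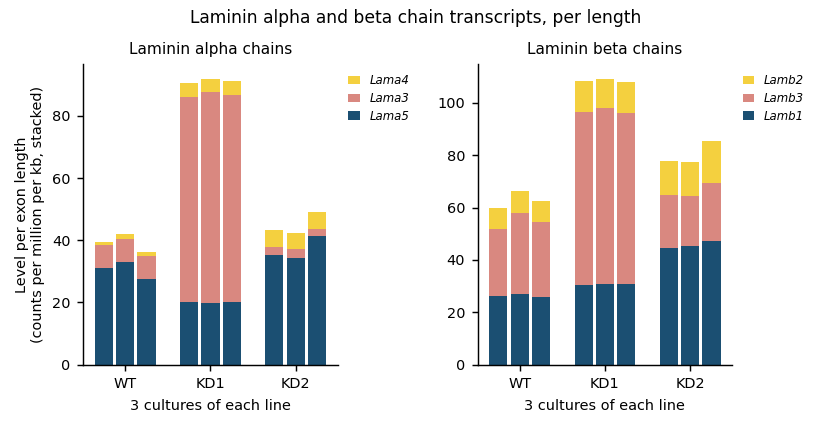
Laminin alpha and beta chain transcripts stacked for each culture (3 bars per line), in CPM per kb of exon. The beta total averages 109 ± 0.702 in *KD1* against 62.9 ± 3.31 in *WT* (mean ± SD), and *Lama3* fills most of the alpha bar in *KD1* only.

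Among the collagen-binding alpha subunits, which all pair with beta1, *Itga2* had the widest range. It had 47, 30 and 34 counts in *WT*, 6525, 6294 and 6018 in *KD1* and 18, 13 and 17 in *KD2*, or 2.41, 1.20 and 1.66, then 241, 247 and 243, then 0.728, 0.433 and 0.836 CPM. The lines did not overlap, with *KD1* far above and *KD2* lowest. The level was 142-fold higher in *KD1* than in *WT* (log2 7.15, SE 0.139, adjusted p 6.3e-14) and 2.66-fold lower in *KD2* (log2 -1.41, SE 0.277, adjusted p 4.6e-04). The gene lies at chr13:114833081-114932100 (GRCm38), and 15 genes tested within 2 Mb of it had a median log2 fold change of 0.33 in *KD1* and -0.05 in *KD2*. Over all of chromosome 13 the median was -0.05 in *KD1* and -0.66 in *KD2*.

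*Itga1*, which lies beside *Itga2* on chromosome 13, stood at 3.07, 3.16 and 2.29 CPM in *WT*, 3.40, 3.54 and 3.59 in *KD1* and 6.67, 6.03 and 4.87 in *KD2*. It did not pass in *KD1* (log2 0.30, adjusted p 0.14) and rose in *KD2* (1.04, SE 0.156, adjusted p 4.5e-05), by 0.94 without the third *WT* culture or the first *KD2* culture. *Itga10*, known from cartilage, had 1.23, 0.560 and 1.03 CPM in *WT*, 0.517, 0.747 and 0.605 in *KD1* and 1.78, 2.06 and 2.02 in *KD2*. It rose in *KD2* (log2 1.09, SE 0.250, adjusted p 0.0015), by 0.82 without the second *WT* culture. In *KD1* it had a log2 fold change of -0.56 (adjusted p 0.13), and of -0.83 without the second *WT* culture, which then passed (adjusted p 0.021). Its reads are uncertain, since 33.5% of its exon bases are also exon of other genes, *Gm42957* on the same strand most of all.

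*Itga11*, known from fibroblasts, had 2, 4 and 4 counts in *WT*, 12, 9 and 8 in *KD1* and 19, 20 and 22 in *KD2*. Every *KD* culture had more than every *WT* culture, at levels near the floor in *WT*. It was called higher in *KD1* (log2 1.26, SE 0.433, adjusted p 0.023) and in *KD2* (2.37, SE 0.373, adjusted p 6.8e-05). The *KD1* call was lost without the first or the second *WT* culture (adjusted p 0.08 and 0.058), without the first *KD1* culture (0.082) and with DESeq2 (0.066).

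The laminin-binding subunits are *Itga3*, *Itga6* and *Itga7*, with *Itgb1* as partner and, for *Itga6*, also *Itgb4*, the long-tailed subunit of hemidesmosomes. *Itga3* had 557, 609 and 582 CPM in *WT*, 1274, 1236 and 1251 in *KD1* and 565, 555 and 641 in *KD2*. *KD1* was above all other cultures, and *KD2* overlapped *WT*. The rise in *KD1* was 2.15-fold (log2 1.10, SE 0.0620, adjusted p 2.6e-09), and the difference in *KD2* did not pass (0.01, SE 0.0615, adjusted p 0.89). *Itga6* had 146, 189 and 167 CPM in *WT*, 259, 278 and 259 in *KD1* and 143, 139 and 119 in *KD2*. It rose in *KD1* (log2 0.67, SE 0.0900, adjusted p 2.3e-05) and fell in *KD2* (-0.32, SE 0.0905, adjusted p 0.006). The fall did not pass without the second *WT* culture (log2 -0.20, adjusted p 0.065). *Itga7*, known from muscle, was low, at 1.84 ± 0.268 CPM in *WT*, 2.20 ± 0.195 in *KD1* and 3.40 ± 0.463 in *KD2*, and it rose in *KD2* (log2 0.88, adjusted p 4.5e-04).

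Their beta partners were the most abundant members in *WT* and did not follow the alpha subunits in *KD1*. *Itgb1* had 1203, 1157 and 1167 CPM in *WT*, 1199, 1247 and 1191 in *KD1* and 816, 822 and 737 in *KD2*. The *KD2* cultures were below all others. It fell in *KD2* (log2 -0.57, SE 0.0544, adjusted p 5.6e-07) and did not pass in *KD1* (0.04, SE 0.0541, adjusted p 0.51), though it passed with the 6 cultures compared alone (0.09, adjusted p 0.047). The 10 genes tested within 2 Mb of *Itgb1* had medians of -0.46 in *KD1* and -0.52 in *KD2*.

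*Itgb4* had 2021, 2233 and 2084 CPM in *WT*, 1930.2, 1898 and 1893 in *KD1* and 1138, 1079.6 and 1301 in *KD2*. The *KD2* cultures were the lowest, with a log2 fold change of -0.85 (SE 0.0662, adjusted p 7.5e-08). In *KD1* the difference of -0.15 (SE 0.0657) had an adjusted p of 0.07, which passed without the second (-0.14, adjusted p 0.046) or the third *KD2* culture (-0.13, adjusted p 0.007), both of which share the estimate of the spread. The difference also passed with the 6 cultures compared alone (-0.11, adjusted p 0.022) and with library size alone (-0.16, adjusted p 0.047). Of its exon bases, 7.66% are also exon of other genes, *B230344G16Rik* on the other strand most of all. The summed level of 7 basal mammary markers, among them *Krt5* and *Krt14*, was 3578 to 4021 CPM in *WT*, 3853 to 3954 in *KD1* and 1803 to 2294 in *KD2*. All 7 were tested, and they moved in different directions. In *KD2* against *WT*, *Krt5*, *Krt14*, *Trp63* and *Oxtr* fell by less than 2-fold, as *Itgb4*, *Itga6* and *Lamb3* did, while *Acta2* and *Cnn1*, contractile genes near the floor in *WT*, were called higher and *Myh11* did not pass. Against *KD1*, 4 of the 7 were called higher in *KD2* (14.7% of all genes) and 1 lower (8.58%), with a median of 1.53. In *KD1* against *WT*, none was called higher (9.34% of all genes) and 2 were called lower (7.49%). Their part in the integrin and laminin results was not tested.

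Per length, the integrin alpha subunits summed to 149 ± 7.17 CPM per kb in *WT*, 323 ± 2.67 in *KD1* and 155 ± 4.77 in *KD2*, and the beta subunits to 630.1 ± 10.8, 602 ± 7.75 and 416 ± 8.76. The alpha total was higher in *KD1* than in both other lines, and the beta total lower in *KD2*. *Itga3* made up 68.4 ± 0.333% of the alpha level in *WT*, 68.0 ± 0.768% in *KD1* and 66.1 ± 3.21% in *KD2*. *Itga2* went from 0.167 ± 0.0654% in *WT* to 10.6 ± 0.196% in *KD1* and 0.0597 ± 0.0174% in *KD2*. *Itgb1* and *Itgb4* together made up most of the beta level in all lines, with 45.7 ± 1.52% and 47.8 ± 1.73% in *WT*. *Itgb4* stood at 16.4 ± 1.33 times the per-length level of *Itga6*, its only partner, in *WT*, 9.26 ± 0.408 times in *KD1* and 11.4 ± 2.31 times in *KD2*.

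**Figure D3:**
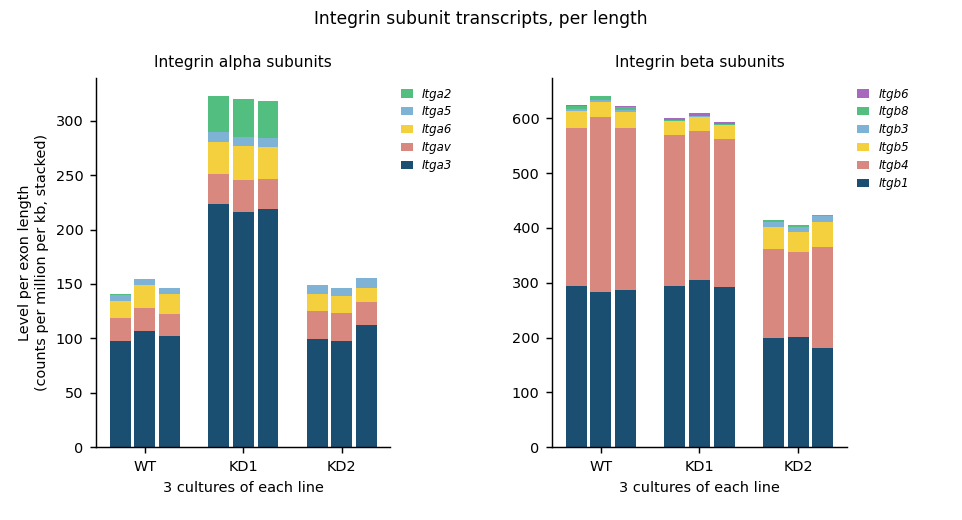
The more abundant integrin alpha (left) and beta (right) subunit transcripts stacked for each culture (3 bars per line), in CPM per kb of exon, on different vertical scales. The alpha bars of *KD1* stand above those of both other lines, with *Itga2* visible in *KD1* only, and the beta bars are shortest in *KD2*.

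The subunits that bind ligands with the RGD sequence, such as fibronectin, vitronectin and latent TGF-beta, moved in different directions. *Itgb3*, the beta subunit of the vitronectin receptor and, with *Itga2b*, of the platelet fibrinogen receptor, had 18.7, 29.8 and 27.2 CPM in *WT*, 4.36, 4.76 and 3.95 in *KD1* and 58.2, 58.9 and 62.8 in *KD2*. The 3 lines did not overlap, with *KD1* lowest and *KD2* highest. It was 5.82-fold lower in *KD1* (log2 -2.54, SE 0.154, adjusted p 5.8e-09) and 2.36-fold higher in *KD2* (log2 1.24, SE 0.123, adjusted p 8.2e-07).

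*Itgb6*, the epithelial subunit that with alpha v activates latent TGF-beta, had 7.68, 8.12 and 6.84 CPM in *WT*, 27.4, 28.3 and 27.2 in *KD1* and 4.61, 4.59 and 4.43 in *KD2*. Here *KD1* was highest and *KD2* lowest, the reverse of *Itgb3*. The log2 fold change was 1.87 in *KD1* (SE 0.0830, adjusted p 2.1e-10) and -0.73 in *KD2* (SE 0.0983, adjusted p 1.6e-05). *Itgb8*, the other subunit that with alpha v activates latent TGF-beta, had 61.4, 68.8 and 64.0 CPM in *WT*, 8.31, 9.44 and 9.80 in *KD1* and 34.0, 35.9 and 20.8 in *KD2*. All *KD* cultures were below all *WT* cultures, and the third *KD2* culture was the lowest of its line. It was called lower in *KD1* (log2 -2.82, SE 0.161, adjusted p 3.0e-09) and in *KD2* (-1.09, SE 0.143, adjusted p 1.3e-05). Without the third *KD2* culture the fall in *KD2* was -0.86 (SE 0.0619, adjusted p 2.1e-09), under 2-fold, which left 2 genes called lower in *KD2* in place of 3. With library size alone it was -0.98, also under 2-fold.

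*Itgb5*, a further partner of alpha v, had 102 ± 7.96 CPM in *WT*, 93.4 ± 1.77 in *KD1* and 143 ± 13.6 in *KD2*. It rose in *KD2* (log2 0.49, adjusted p 5.5e-05) and did not pass in *KD1* (-0.12, adjusted p 0.18). *Itgav*, the alpha subunit shared by these receptors, had 226, 229 and 219 CPM in *WT*, 304, 314 and 298 in *KD1* and 277, 278 and 227 in *KD2*. It rose in *KD1* (log2 0.45, SE 0.0727, adjusted p 1.3e-04). In *KD2*, where the third culture overlapped *WT*, it rose by 0.22 (SE 0.0727, adjusted p 0.017), by 0.33 without the third *KD2* culture (adjusted p 8.5e-07), and it did not pass without the first or the second (adjusted p 0.077 and 0.068).

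*Itga8*, a receptor subunit for nephronectin and fibronectin, had 1.23, 2.28 and 2.49 CPM in *WT*, 0.480, 0.590 and 0.323 in *KD1* and 5.21, 5.96 and 4.67 in *KD2*. The order was that of *Itgb3*, with *KD1* lowest and *KD2* highest. The log2 fold change was -2.10 in *KD1* (SE 0.306, adjusted p 4.4e-05) and 1.39 in *KD2* (SE 0.213, adjusted p 5.3e-05), where the 21 genes tested within 2 Mb had a median of 0.54. *Itga5*, the alpha subunit of the classical fibronectin receptor, rose from 27.2 ± 1.21 CPM in *WT* to 43.6 ± 1.90 in *KD1* and 39.8 ± 2.56 in *KD2* (log2 0.68 and 0.55, adjusted p 1.4e-06 and 1.0e-05). *Itga2b*, known from platelets, had 3.59, 3.12 and 3.76 CPM in *WT*, 6.24, 5.58 and 5.61 in *KD1* and 10.4, 10.6 and 13.3 in *KD2*. It rose in *KD1* (log2 0.74, SE 0.139, adjusted p 4.1e-04) and was called higher in *KD2* (1.71, SE 0.132, adjusted p 6.5e-08).

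The summed level of the 10 fibroblast and mesenchymal markers was lowest in *KD1* and highest in *KD2*, the order seen for *Itgb3* and *Itga8*. Of the 6 of them that were tested, 5 were called lower in *KD1* (7.49% of all genes) and *Pdgfra* did not pass (0.07, adjusted p 0.62). In *KD2*, 4 were called higher (14.5% of all genes), *Col1a1* fell (-0.71, adjusted p 0.0019) and *Col3a1* did not pass (-0.17, adjusted p 0.43). *Vim* had 145 ± 27.8 CPM in *WT*, 18.3 ± 0.545 in *KD1* and 1092 ± 98.7 in *KD2*, and *Pdgfrb* 0.823 ± 0.236, 0.142 ± 0.0582 and 66.8 ± 5.02. Their part in the integrin results was not tested.

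Integrins of leukocytes were low throughout. *Itgae*, the alpha subunit that binds E-cadherin, had 1.59, 1.36 and 1.37 CPM in *WT*, 1.66, 1.65 and 1.49 in *KD1* and 3.07, 3.73 and 2.90 in *KD2*. The *KD2* cultures were above all others. It rose in *KD2* (log2 1.18, SE 0.170, adjusted p 3.0e-05) and did not pass in *KD1* (0.16, adjusted p 0.49). *Itgax*, the CD11c subunit of myeloid cells, had 8, 20 and 9 counts in *WT*, 8, 10 and 4 in *KD1* and 63, 87 and 49 in *KD2*. Its cultures of *KD2* lay above all others, and it was called higher in *KD2* (log2 2.21, SE 0.262, adjusted p 4.9e-06). In *KD1* it was lower by a margin near the threshold (-0.98, adjusted p 0.043), which moved to -0.55 (adjusted p 0.33) without the second *WT* culture and also did not pass without the first (adjusted p 0.087) or the third *KD1* culture (0.16), without the first *KD2* culture (0.054) or with DESeq2 (0.063). It was called lower, past 2-fold, without the first *WT* culture (-1.15, adjusted p 0.034). Of its exon windows of 50 bases, 8.02% also occur in other genes, *Itgad* most of all.

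*Itgb2*, the beta subunit of leukocyte integrins, had 11, 21 and 10 counts in *WT*, 18, 20 and 18 in *KD1* and 17, 24 and 8 in *KD2*, and passed in neither line (adjusted p 0.66 and 0.98). *Itgb7*, the lymphocyte subunit that pairs with *Itgae*, had 2.23 ± 0.379 CPM in *WT*, 2.75 ± 0.337 in *KD1* and 2.68 ± 0.412 in *KD2*, and passed in neither line (adjusted p 0.17 and 0.23). *Itga4*, *Itga9*, *Itgad*, *Itgal* and *Itgam* were not tested. Among these, the highest value was 9 counts, of *Itgal* in the first *KD2* culture, and *Itga4* had at most 1 count in any culture. The low counts of *Itgam* are uncertain, since 68.7% of its exon bases are also exon of other genes, *Gm49368* on the same strand most of all. The 16 leukocyte markers summed to 3.66 to 6.66 CPM in *WT*, 8.03 to 9.52 in *KD1* and 5.17 to 6.99 in *KD2*, with 13 or 14 of the 16 at or under the floor in each line and *Cd4*, *Adgre1* and *Pf4* at 0 in all cultures. The myeloid marker *Lyz2*, which encodes a lysozyme, had 1, 1 and 0 counts in *WT*, 0, 0 and 0 in *KD1* and 31, 41 and 27 in *KD2*. Of the 3 leukocyte markers tested, it alone was called higher in *KD2* (14.5% of all genes, adjusted p 1.2e-06). *Cd68* and *Csf1r*, also myeloid markers, were instead highest in *KD1*. *Cd68* had 115, 86 and 61 counts in *WT*, 207, 210 and 168 in *KD1* and 87, 118 and 94 in *KD2*. *Csf1r* had 1, 2 and 2 counts in *WT*, 13, 6 and 7 in *KD1* and 2, 3 and 0 in *KD2*. *Ptprc*, the pan-leukocyte marker, had at most 2 counts in any culture, and the part of such cells in these results was not tested.

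**Figure D4:**
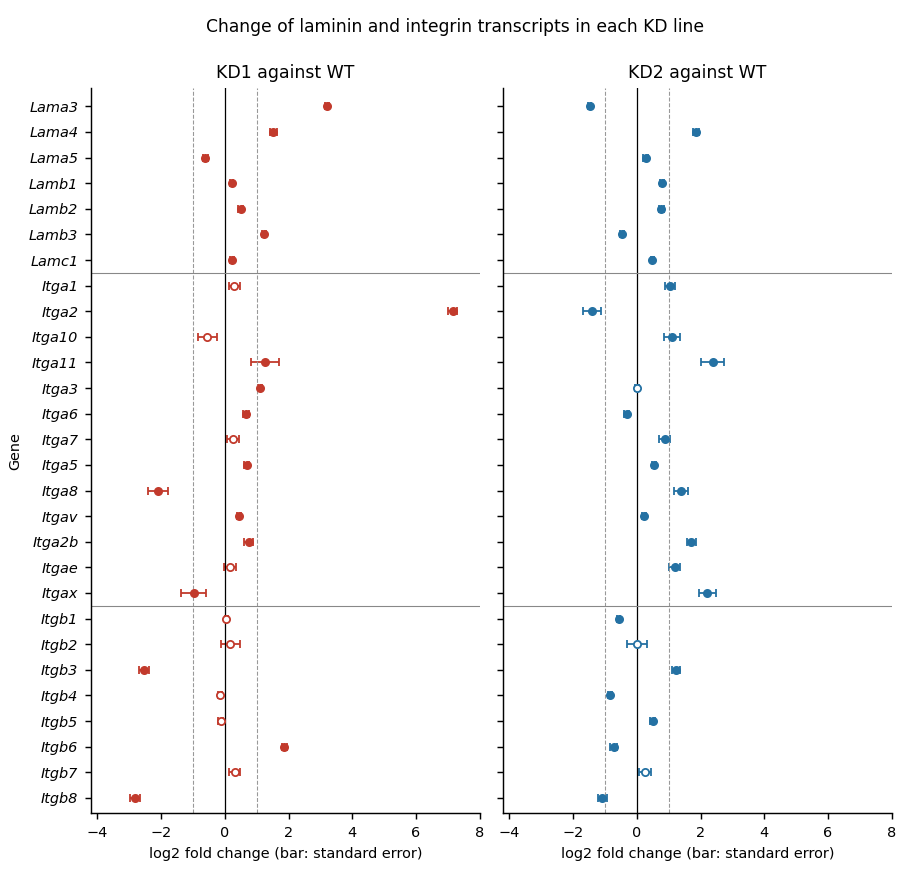
Log2 fold change of each tested gene in *KD1* (left, red) and *KD2* (right, blue) against *WT*, with the standard error as a bar, filled points for an adjusted p under 0.05 and dashed lines at a 2-fold change. *Itga2* lies farthest from 0 in *KD1* at 7.15, and *Itgax*, *Itga11* and *Lama4* are among the largest rises in *KD2*.

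The *KD* lines were also compared with each other, in the same fit. Of the 28 genes, 7 were called higher in *KD2* than in *KD1*, where 14.7% of all genes were, and 5 were called lower, against 8.58% of all genes. At the adjusted p alone 16 were higher (34.8% of all genes), 9 were lower (33.0%) and 3 did not pass, with a median log2 difference of 0.30 against 0.02 over all genes. The genes lower in *KD2* were *Itga2* (log2 -8.56, SE 0.156, adjusted p 1.8e-14), *Lama3* (-4.69, SE 0.0596, adjusted p 2.0e-15), *Itgb6* (-2.60), *Lamb3* (-1.69) and *Itga3* (-1.09). These encode laminin chains, a laminin receptor subunit, a collagen receptor subunit and an epithelial beta subunit. The genes higher in *KD2* were *Itgb3* (3.78, SE 0.148, adjusted p 3.8e-11), *Itga8* (3.50), *Itgax* (3.19), *Itgb8* (1.73), *Itga10* (1.65), *Itga11* (1.12) and *Itgae* (1.02). The difference of *Itga11* was 0.92 without the third *KD2* culture, and that of *Itgae* 0.96 without the third *KD1* culture and 0.90 without the second *KD2* culture, all under 2-fold. *Itga6*, at -0.99, lay just under the 2-fold threshold, and was past it with DESeq2 (-1.0008, adjusted p 4.6e-23). *Itga2b*, at 0.97, also lay just under, and was past it with library size alone (1.09, adjusted p 2.1e-06). Without the third *KD2* culture *Itga6* was at -0.91 and *Itga2b* at 0.86.

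The neighbourhoods of some of these genes also differed between the lines. Genes tested within 2 Mb had a median log2 difference between *KD2* and *KD1* of -0.71 for *Itga2* (15 genes), 0.97 for *Itga8* (21 genes), 0.64 for *Itgb8* (7 genes) and 0.51 for *Itgb6* (17 genes). For *Itgb6* the neighbours leaned the other way from the gene itself. The median over chromosome 13 was -0.61. The genes' own differences were -8.56 for *Itga2*, 3.50 for *Itga8* and 1.73 for *Itgb8*. Whether the neighbourhood has a part in them was not tested.

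Other genes of the basement membrane and of laminin attachment were taken as a list of 32, of which 22 were tested. In *KD1*, 5 of the 22 were called higher (9.34% of all genes) and 2 lower (7.49%), and 10 rose (26.9%), 9 fell (30.0%) and 3 did not pass (median 0.17). *Smoc2*, a matrix protein of basement membranes, rose by 2.13 on the log2 scale (SE 0.283, adjusted p 1.9e-05), *Col15a1*, a basement membrane collagen, by 1.36 (adjusted p 4.5e-04) and *Sdc1*, the epithelial syndecan, by 1.17 (adjusted p 4.4e-09). *Fras1*, an extracellular protein that joins epithelium to its basement membrane, changed by -2.12 (adjusted p 3.8e-07) and *Col4a5*, a type IV collagen chain, by -1.21 (adjusted p 2.8e-09). In *KD2*, 4 of the 22 were called higher (14.5% of all genes) and 2 lower (6.71%), and 11 rose (34.0%), 5 fell (33.3%) and 6 did not pass (median 0.26). The rises were led by *Sparc* (1.31, adjusted p 1.3e-09), a collagen-binding matrix protein, *Hspg2* (1.21, adjusted p 2.0e-08), which encodes perlecan, and *Npnt* (1.09, adjusted p 4.5e-07), which encodes the *Itga8* ligand nephronectin. The falls were *Fras1* (-3.81, adjusted p 8.6e-09) and *Bcam* (-1.85, adjusted p 0.0014), a receptor for *Lama5* that had 7 to 14 counts in *WT* and 2 to 5 in *KD2*.

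The intracellular and membrane partners of integrins were taken as a list of 45, of which 43 were tested. In *KD1*, 2 of the 43 were called higher (9.34% of all genes) and 4 lower (7.49%), and 20 rose (26.9%), 10 fell (30.0%) and 13 did not pass (median 0.12). *Tns4*, an adhesion tensin, rose by 2.97 on the log2 scale (SE 0.0706, adjusted p 3.6e-13) and *Actn1*, which crosslinks actin, by 1.22 (adjusted p 3.3e-10). *Tln2*, a talin that switches integrins on, changed by -1.81 (adjusted p 3.7e-11), *Slc3a2*, a beta1 partner and amino acid transporter chain, by -1.21 (adjusted p 3.5e-09) and *Tgfb1i1*, a paxillin relative, by -1.16 (adjusted p 0.0067). Without the third *WT* or the third *KD1* culture, *Tgfb1i1* was at -0.98, under 2-fold. The count of partners called higher in *KD1* was 4 without the second *WT* culture.

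In *KD2*, 9 of the 43 partners were called higher (14.5% of all genes) and 4 lower (6.71%), and 22 rose (34.0%), 13 fell (33.3%) and 8 did not pass (median 0.21). *Fermt3*, the blood cell kindlin, rose by 3.52 on the log2 scale (SE 0.209, adjusted p 5.1e-09), *Arhgef6*, an exchange factor bound by parvins, by 2.97 (adjusted p 1.0e-07) and *Tns1*, a tensin of fibrillar adhesions, by 2.97 (adjusted p 5.2e-06). *Tns1* had 2 to 4 counts in *WT*. The largest falls were those of *Col17a1*, the hemidesmosome collagen (-1.71, adjusted p 5.0e-10), *Tns4* (-1.35, adjusted p 1.4e-09) and *Fermt1*, the epithelial kindlin (-1.21, adjusted p 4.9e-10). *Col17a1*, which sits with *Itgb4* in the hemidesmosome, had 607 ± 65.6 CPM in *WT*, 1213 ± 20.1 in *KD1* and 185 ± 15.4 in *KD2*. Set directly against *KD1*, *KD2* had 2 of the 22 genes of the basement membrane list called higher (14.7% of all genes) and 4 called lower (8.58%), and 10 of the 43 partners called higher and 4 called lower.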

How the data were processed

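RNA-seq covered 9 HC11 cultures, 3 for each of *WT*, *KD1* and *KD2*, with groups taken from the sample labels and 0 unassigned table columns. The labels call the *KD* lines knockouts. The authors deposited raw read counts per gene, without normalization. Per the methods and the submitters' processing notes, paired-end reads from a kit that does not mark strand were trimmed with fastp, mapped to GRCm38 with HISAT2 and counted over exons with featureCounts from Subread, and the tool versions are not given in the sources used here. Reads from genes that overlap on opposite strands therefore cannot be told apart.

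The counts were tested in edgeR 4.0.16 (R 4.3.3) by quasi-likelihood in 1 model of all 9 cultures by line, with TMM scaling, filterByExpr on the 3 lines and no replicate term. This left 15253 genes, over which p-values were adjusted by Benjamini-Hochberg. Called genes had an adjusted p under 0.05 together with a log2 fold change beyond 1 in either direction. The study's own choice for these counts was the Wald test of DESeq2, which was run here as an alternative. The script was tested on simulated counts with known changes. CPM values divide the counts by library sizes adjusted with TMM, and levels per kb use exon lengths of GENCODE vM21, a release other than the one the methods name, in which all 36 genes were found. Exon overlaps and windows of 50 bases shared with other genes were computed from the same release. Promoter sequences and their coordinates are from RefSeq.

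Depth ran from 19231428 to 28360592 counts per culture. Only counting error is covered by the floor of 3 counts. The chi-square over genes between replicates was 1.57, 1.39 and 1.84 per degree of freedom for the *KD1* pairs. The value of 1.39, between the first and the third *KD1* culture, was the lowest of any pair. Whether cultures of a line are repeat preparations of the same RNA sample was not tested. Same-numbered cultures of different lines deviated from their line means with a mean correlation of 0.0012 (range -0.0652 to 0.0789), so that the numbers were not taken to pair the cultures.

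The genes and lists were chosen with earlier results of these data known. Of the 37 integrin and laminin genes in the table, 1 is not reported here. From the lists of basement membrane genes and integrin partners, the 3 genes with the largest rise and the 3 with the largest fall among those called were named for each *KD* line, or all where fewer were called. Marker lists are given by sums and counts. Lists are described by counts and medians, with no set test. Alternatives were DESeq2 1.42.0, median-of-ratios factors, library size alone, no filter beyond 1 count, at least 10 counts in every culture, only the 6 cultures compared, the replicate number as a block, and each culture left out in turn.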

Additional observations from a re-analysis of the deposited data

Results flagged for a closer look

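The genes below were looked at again because the *KD* lines, each set against the same *WT* cultures, differed from each other by more than 2-fold in a direct test of that difference (edgeR's quasi-likelihood test, Benjamini-Hochberg adjusted p under 0.05 over 15253 genes). The values are log2 differences, *KD2* minus *KD1*. Of the laminin chains, *Lama3* differed by -4.69 and *Lamb3* by -1.69, both higher in *KD1*. Of the integrins higher in *KD1*, *Itga2* differed by -8.56, *Itgb6* by -2.60 and *Itga3* by -1.09. Those higher in *KD2* were *Itgb3* at 3.78, *Itga8* at 3.50, *Itgax* at 3.19, *Itgb8* at 1.73, *Itga10* at 1.65, *Itga11* at 1.12 and *Itgae* at 1.02. For *Itgb8* both lines were below *WT*. The 12 genes were chosen by this test on the same cultures. That their levels did not overlap between the lines follows nearly from that choice and is no further support. Each line is 1 clone, so that the edit and the clone cannot be told apart. No formal search for a sample far from the rest was made, since it needs groups of at least 4 samples. The third *KD2* and the first *WT* culture were singled out by the chi-square between replicates alone.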

How the results depend on the processing

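Of the 84 member results (28 genes in 3 comparisons), 71 kept their direction and their side of the adjusted p threshold, 63 of them under all 16 alternatives and 8 under 15, since the filter of 10 counts in every culture removed *Itga8*, *Itga11*, *Itgax* and *Itgb2*. Of these 71, 9 crossed 2-fold under some alternative, among them *Itga1*, *Itga10* and *Itgb8* in *KD2* (*Itgb8* at -0.98 with library size alone). The counts of members called stayed within 1.5 times. Library size alone shifted the median of all genes by 0.11 in *KD2* against *WT* and by 0.13 in *KD2* against *KD1*. The replicate block changed the sign of *Itgb2* in *KD2* (-0.0023), which passed under no setting, and changed no other member result. 4 member results changed sign, all of them without a passing test: against *WT* in *KD2*, *Itgb2* was at -0.0209 with no filter and from -0.2134 to 0.3207 over the leave-one-out fits, and *Itga3* at -0.0217 with no filter and from -0.03 to 0.0656 over those fits. In *KD2* against *KD1*, *Itgb2* ran from -0.3894 to 0.0505 over the leave-one-out fits, and *Itgb7* from -0.1605 to 0.0395 over them and at 0.0777 with library size alone. *Vangl2* in *KD2*, which did not pass either, was at -0.0379 without *WT* replicate 1. A further 9 results crossed the threshold in either direction. These include, between the lines, *Itgav* at -0.10 with library size alone and *Itga5* at -0.18 (adjusted p 0.0077) without *KD2* replicate 3. Between the lines, with library size alone, *Itga3* was under 2-fold at -0.97.

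With at least 10 counts in every culture, which tests fewer genes, the basement membrane list had 1 gene called lower in *KD1* (main 2), 0 in *KD2* (2) and 1 in *KD2* against *KD1* (4), and the integrin partners had 4 called higher in *KD2* (9) and 6 in *KD2* against *KD1* (10). With only the 6 cultures compared the basement membrane list had 1 called lower in *KD2*, and with library size alone it had 4 called higher in *KD2* against *KD1* (2). The partners called higher in *KD1* numbered 2 to 4 over the leave-one-out fits. The causes were not tested. Depth limits the genes near 3 counts, such as *Itga11*, *Itgax* and *Itgb2*.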
